A study of Homo sapiens with 9 samples.

Results

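HMOX1 and 9 further genes of the NRF2 antioxidant response (NQO1, GCLM, GCLC, TXNRD1, SRXN1, OSGIN1, FTL, FTH1 and NFE2L2) were followed in an immortalized line of human trabecular meshwork cells, from the filtering tissue that drains aqueous humour from the eye. The members were given as a list of gene symbols, and all 10 were found among the 37247 gene identifiers of both count tables. The list was selected on results of these data already known, with the levels in the 2 sets of vehicle libraries in view. The difference between those sets is therefore described without a test.

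The groups were 3 libraries of cells given dexamethasone (DEX, an agonist of the glucocorticoid receptor) at 0.1 µM, with 3 vehicle libraries in the same table, and 3 libraries of cells given norepinephrine (NE, an adrenergic agonist) at 1 µM, with 3 other vehicle libraries in a second table. All cells were of 1 purchased line, were grown on collagen to near confluence, spent 24 h without serum and were exposed for 6 h, with DMSO as the vehicle. The vehicle columns of the NE table are named for DMSO and could not be matched to labelled samples, since the labels list 3 vehicle samples and the tables hold 6 vehicle columns. The labels call the replicates biological but do not say whether the cultures were separate, so p-values measure the spread between these samples, which may be technical.

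NRF2, encoded by NFE2L2, is a transcription factor that KEAP1 holds in the cytoplasm and hands to the proteasome. Electrophiles and oxidants modify KEAP1, and NRF2 then accumulates, pairs with small MAF proteins and binds antioxidant response elements, while BACH1 competes for the same elements and is released by heme. Its targets make glutathione, reduce thioredoxin, detoxify quinones and store the iron that heme oxygenase sets free. Trabecular meshwork cells meet oxidants carried by the aqueous humour.

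Library totals were 19326653 to 27337076 counts in the DEX table and 31103845 to 36216254 in the NE table. The 13 mitochondrial genes took 1.4% to 1.67% of counts in the NE table, against 3.61% to 3.92% in the DEX table. Of 13 trabecular meshwork markers, 9 reached 1 CPM (counts scaled to a common library total) in some library, and their summed level was 1413 to 1474 CPM with DEX and 1308 to 1373 CPM in its vehicle, and 1197 to 1221 CPM with NE and 1083 to 1137 CPM in its vehicle. Most of that sum was COL4A1, FBN1 and TIMP1. They averaged 707, 272 and 264 CPM in the DEX-table vehicle, and 310, 354 and 321 CPM in the NE-table vehicle. Replicate 1 of the NE-table vehicle stood apart from the other 2 libraries of its set: the chi-square of their counts over genes was 17.4 and 21.2 per degree of freedom, against 2.96 to 9.49 for the other pairs within sets. MYOC, ANGPTL7 and AQP1, also markers of the tissue, had at most 6, 11 and 8 counts in any library. In bulk RNA, fewer cells of a type and less RNA per cell cannot be told apart.

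The 3 windows below are shown because, of the 10 windows of members, they alone hold the core letters of the antioxidant response element. They lie in front of GCLM and TXNRD1. Each is the 250 bases before a RefSeq gene start (GRCh38.p14), written along the gene's own strand, with the match in capitals. The core searched was TGACNNNGC on both strands, whose first 4 letters also open the AP-1 element TGACTCA, so matches of the 2 elements can overlap.
GCLM, chr1:93909431-93909680, minus strand: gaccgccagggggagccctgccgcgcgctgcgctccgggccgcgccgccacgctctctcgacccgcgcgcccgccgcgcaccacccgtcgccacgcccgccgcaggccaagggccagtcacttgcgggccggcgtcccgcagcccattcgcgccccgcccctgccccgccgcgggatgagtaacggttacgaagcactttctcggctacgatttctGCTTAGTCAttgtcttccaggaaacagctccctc
TXNRD1 upstream start, chr12:104215529-104215778, plus strand: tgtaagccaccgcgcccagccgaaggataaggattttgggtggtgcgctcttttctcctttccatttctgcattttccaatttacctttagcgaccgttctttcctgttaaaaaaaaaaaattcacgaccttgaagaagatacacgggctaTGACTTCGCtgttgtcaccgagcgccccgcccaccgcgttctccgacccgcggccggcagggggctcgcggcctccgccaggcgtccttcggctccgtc
TXNRD1 downstream start, chr12:104286782-104287031, plus strand: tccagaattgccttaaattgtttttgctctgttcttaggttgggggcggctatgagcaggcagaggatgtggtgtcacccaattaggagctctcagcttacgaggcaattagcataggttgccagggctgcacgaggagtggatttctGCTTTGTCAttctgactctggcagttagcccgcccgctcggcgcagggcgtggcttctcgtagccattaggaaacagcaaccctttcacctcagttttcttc

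The match lay 30 bases before the GCLM start, and 95 and 98 bases before the 2 TXNRD1 starts, measured to its centre. Windows were available for 8 members, 10 windows in all. The core was held by 3 of them, in front of 2 members, against 10.9% of all 35116 windows of that length. A glucocorticoid response element core was also searched for on both strands and was found in 0 of the 10 windows and in 0.327% of all windows. NQO1, GCLC, SRXN1, OSGIN1, FTL and NFE2L2 had windows without either set of letters, which says nothing about more distant elements. DEX raised GCLC, SRXN1, OSGIN1 and NFE2L2 as well as GCLM and TXNRD1, and a link between the element and the DEX effect was not tested. HMOX1 and FTH1 had no window.

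DEX raised 6 of the 10 members and lowered 0 of them at an adjusted p below 0.05 in edgeR's quasi-likelihood test, the test behind every adjusted p given here unless another tool is named. Of all 15133 genes tested, 6.65% were called higher and 3.46% lower. The members that rose were the transcription factor gene itself, the genes of both subunits of glutamate-cysteine ligase, those of thioredoxin reductase and sulfiredoxin, and OSGIN1. Their increases were between 1.16-fold and 1.40-fold, and the median log2 fold change of the 10 members was 0.23, against -0.01 over all genes. HMOX1, NQO1 and the 2 ferritin genes did not pass the test. In 8 of the 10 members the 3 DEX libraries lay above all 3 vehicle libraries, as did 14.7% of all genes. These values share the DEX-table vehicle libraries with the difference between vehicle sets that was in view when the list was made.

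NFE2L2 (chromosome 2, 177227595 to 177392697, GRCh38) was at 207, 194 and 212 CPM in the DEX libraries, against 154, 155 and 154 CPM in their vehicle libraries. The vehicle libraries were nearly level and all 3 DEX libraries were above them. It rose 1.33-fold (log2 fold change 0.41, SE 0.04, adjusted p = 1.49e-05).

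GCLC encodes the catalytic subunit of glutamate-cysteine ligase, the rate-limiting enzyme of glutathione synthesis, and GCLM its modifier subunit. GCLC (chromosome 6, 53497341 to 53616970) was at 57.6, 54.7 and 50.8 CPM with DEX, against 37.5, 40.1 and 38.9 CPM in vehicle. The sets were apart, and GCLC had the largest increase of the 10 members, 1.40-fold (log2 0.49, SE 0.06, adjusted p = 3.57e-05). GCLM (chromosome 1, 93885205 to 93909456) was at 153, 152 and 145 CPM with DEX, against 124, 131 and 135 CPM in vehicle. Its sets did not overlap, and it rose 1.16-fold (log2 0.21, SE 0.04, adjusted p = 0.00738), though it was not called once DEX replicate 2 was left out (log2 0.19, adjusted p = 0.0574; lowest and highest adjusted p over 15 alternatives 0.00019 and 0.0574).

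TXNRD1 encodes the selenoprotein that reduces thioredoxin with NADPH, and SRXN1 encodes sulfiredoxin, which restores overoxidized peroxiredoxins. TXNRD1 (chromosome 12, 104215779 to 104350305) was at 1060, 1103 and 1096 CPM with DEX, against 773, 784 and 801 CPM in vehicle. The spread within each set was small beside the gap, and the gene rose 1.39-fold (log2 0.47, SE 0.04, adjusted p = 2.72e-06). SRXN1 (chromosome 20, 646615 to 653370) was at 84.0, 86.1 and 80.1 CPM with DEX, against 74.7, 74.3 and 67.9 CPM in vehicle. All 3 DEX libraries were above the vehicle set. It rose 1.16-fold (log2 0.21, SE 0.05, adjusted p = 0.0142), and was not called without DEX replicate 2 (log2 0.18, adjusted p = 0.103; range over 15 alternatives 0.00055 to 0.103).

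OSGIN1 is an oxidative-stress-induced gene linked to growth inhibition, and NQO1 encodes the quinone reductase that is a standard NRF2 readout. OSGIN1 (chromosome 16, 83948282 to 83966332) was at 33.6, 34.5 and 30.3 CPM with DEX, against 26.8, 26.0 and 22.4 CPM in vehicle. The sets were apart and it rose 1.31-fold (log2 0.39, SE 0.07, adjusted p = 0.00263). NQO1 (chromosome 16, 69706996 to 69726951) was at 439, 440 and 451 CPM with DEX, against 504, 478 and 445 CPM in vehicle. Vehicle replicate 3 lay inside the DEX range. NQO1 did not pass (log2 -0.10, 95% interval -0.20 to 0.01, adjusted p = 0.25), but was called lower without DEX-table vehicle replicate 3 (log2 -0.15, adjusted p = 0.0342; range over 15 alternatives 0.0342 to 0.606).

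HMOX1 encodes the inducible heme oxygenase, which splits heme into biliverdin, carbon monoxide and iron. HMOX1 (chromosome 22, 35380361 to 35394214) was at 490, 535 and 444 CPM with DEX, against 438, 435 and 366 CPM in vehicle. Each DEX library exceeded every vehicle library, but the lowest DEX library was only just above the highest vehicle library. The log2 fold change was 0.25 (SE 0.09, 95% interval 0.04 to 0.46) with an adjusted p of 0.142, which did not pass. It was called by DESeq2 (adjusted p = 0.00914), without the filter on low counts (4.84e-06) and without DEX replicate 3 (log2 0.31, adjusted p = 0.0445), and adjusted p ranged from 4.84e-06 to 0.314 over 15 alternatives.

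FTL and FTH1 encode the light and heavy chains of ferritin, the iron store, with the ferroxidase site in the heavy chain. FTL (chromosome 19, 48965301 to 48966878) was at 3110, 2994 and 3034 CPM with DEX, against 3251, 3163 and 2769 CPM in vehicle, and the DEX range fell within the vehicle range. FTH1 (chromosome 11, 61959718 to 61967660) was at 3258, 3323 and 3359 CPM with DEX, against 3221, 3190 and 2952 CPM in vehicle. The FTH1 sets were apart, but neither gene passed: the 95% interval of the log2 fold change was -0.13 to 0.12 for FTL and -0.01 to 0.19 for FTH1, whose adjusted p was 0.278. FTH1 was called after a correction for GC content and length (log2 0.13, adjusted p = 0.0257, range over 15 alternatives 0.0257 to 0.5). Ferritin pseudogenes could split reads with both genes; the 25 FTH1 pseudogenes listed held at most 0.0986% of the FTH1 counts and the 16 FTL pseudogenes at most 0.0215% of the FTL counts.

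**Figure D1:**
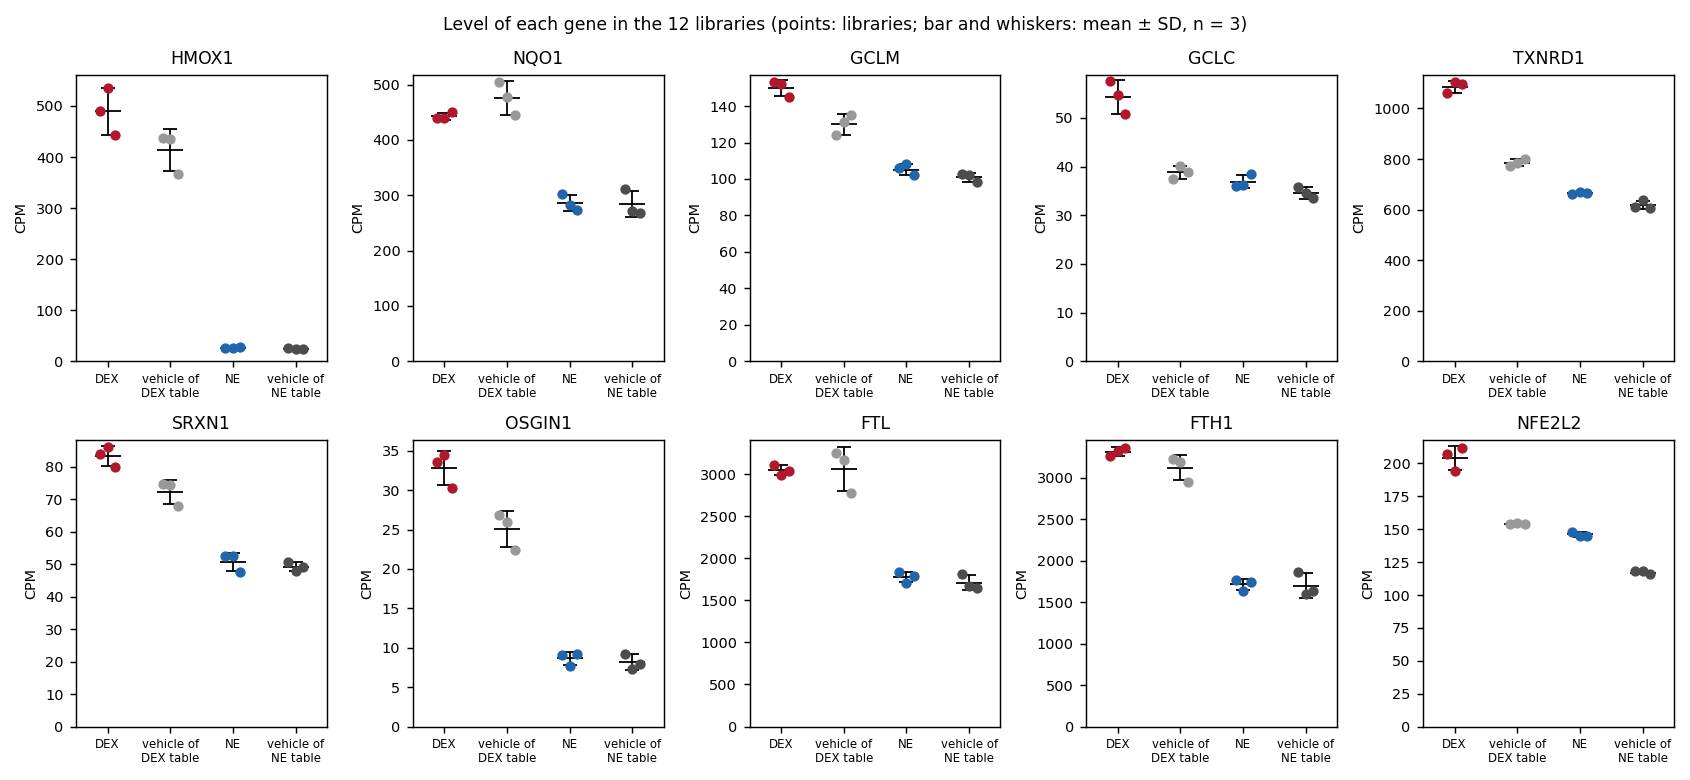
Level of each of the 10 genes in CPM (y axis from 0, a scale of its own for each gene) in the DEX libraries, their vehicle libraries, the NE libraries and their vehicle libraries, with 1 point a library and the mean ± SD as bar and whiskers. HMOX1 sits at 444 to 535 CPM with DEX and 366 to 438 CPM in its vehicle, and at 25.1 to 28.1 CPM with NE and 23.5 to 25 CPM in its vehicle.

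With NE, 1 of the 10 members, NFE2L2, passed the test and rose, and 0 fell. Over all 15630 genes tested, 1.48% were called higher and 1.34% lower, 2.82% in all. At an unadjusted p below 0.05, TXNRD1 was added. The median log2 fold change of the members was 0.07, against -0.00 over all genes. The NE values share the NE-table vehicle libraries with the difference between vehicle sets that was in view when the list was made. Without replicate 1 of the NE-table vehicle, 1 member was again called, NFE2L2 (log2 0.32), while the genes called over the table were 658, against 441 with it.

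NFE2L2 was at 148, 145 and 145 CPM in the NE libraries, against 118, 118 and 116 CPM in their vehicle libraries. Both sets were tight and apart, and the gene rose 1.24-fold (log2 0.32, SE 0.04, adjusted p = 0.00341). TXNRD1 was at 661, 668 and 665 CPM with NE, against 609, 636 and 608 CPM in vehicle. Its NE libraries were all above the vehicle set, with a log2 fold change of 0.11 (SE 0.04, 95% interval 0.01 to 0.20, adjusted p = 0.307).

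HMOX1 was at 26.5, 25.1 and 28.1 CPM with NE, against 25, 23.5 and 24.7 CPM in vehicle. The lowest NE library was only just above the highest vehicle library, and the log2 fold change of 0.12 did not pass (SE 0.06, 95% interval -0.01 to 0.26, adjusted p = 0.415). GCLC averaged 36.9 ± 1.4 CPM with NE and 34.6 ± 1.2 CPM in vehicle (SD, n = 3 each), with an adjusted p of 0.49. The log2 fold changes of the other 6 members lay between 0.01 and 0.08, with adjusted p from 0.601 to 0.96. They lay between 0.06 and 0.18, also without a call, when replicate 1 of the vehicle was left out. OSGIN1, the least abundant member in these libraries at 271 to 328 counts with NE and 272 to 298 counts in vehicle, had the widest interval, -0.17 to 0.34.

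**Figure D2:**
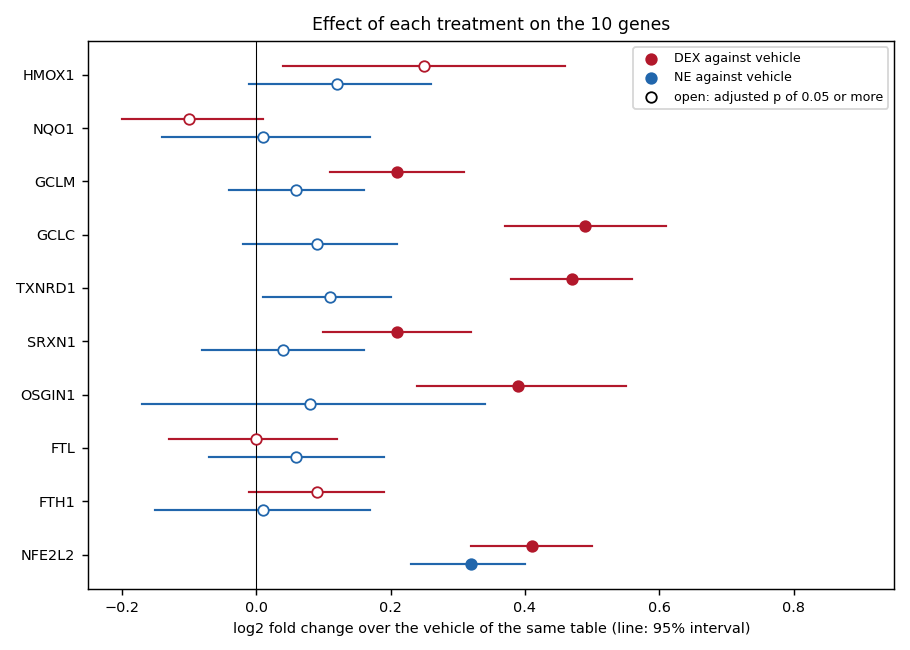
Log2 fold change of each of the 10 genes (x axis, line: 95% interval) with DEX and with NE, each set against its own vehicle libraries; filled points passed an adjusted p of 0.05. DEX has 6 filled points, at 0.21 to 0.49, and NE has 1, NFE2L2 at 0.32.

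Set against each other, the responses to DEX and to NE differed past the threshold in 2 members, both higher with DEX. Of all 15952 genes in that fit of all 12 libraries, 3.88% were called higher and 2.12% lower. This contrast uses both vehicle sets, whose difference was in view when the list was made. TXNRD1 responded more to DEX, by a log2 difference of 0.36 (SE 0.05, adjusted p = 0.000642), and so did GCLC, by 0.39 (SE 0.08, adjusted p = 0.00584). Both calls held in 17 alternatives. NFE2L2, raised by both agents, differed by 0.09 (95% interval -0.02 to 0.20, adjusted p = 0.449), and HMOX1 by 0.12 (95% interval -0.13 to 0.37, adjusted p = 0.703). A p above the threshold does not show that the effects were equal: the GCLM interval was 0.01 to 0.28 (adjusted p = 0.235) and the OSGIN1 interval 0.01 to 0.61 (adjusted p = 0.277).

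HMOX1 also stood far apart between the 2 vehicle sets. It was at 25, 23.5 and 24.7 CPM in the NE-table vehicle libraries, against 438, 435 and 366 CPM in the DEX-table vehicle libraries. The difference was -4.07 on the log2 scale, 16.8-fold lower in the NE-table vehicle, and HMOX1 ranked 14 from the lowest among 15952 genes. Counts were 804 to 896 in the NE-table vehicle and 8212 to 9967 in the DEX-table vehicle. Under other scalings, and without any single vehicle library, the difference stayed between -4.16 and -4.02. The treated libraries showed it as well, with means of 26.6 ± 1.5 CPM for NE and 490 ± 46 CPM for DEX (SD, n = 3 each).

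All 10 members were lower in every NE-table vehicle library than in any DEX-table vehicle library, as were 28.0% of all genes, while 28.2% were higher in the same way. More than 2-fold lower without overlap were 2 members, HMOX1 and OSGIN1, and 4.14% of all genes, with 2.58% of genes more than 2-fold higher. OSGIN1 averaged 8.19 ± 0.98 CPM in the NE-table vehicle and 25.1 ± 2.3 CPM in the DEX-table vehicle, 3.05-fold lower, and ranked 271 from the lowest. FTH1, FTL and NQO1 followed at 1.84-fold, 1.79-fold and 1.68-fold lower. SRXN1, NFE2L2, GCLM and TXNRD1 were 1.46-fold, 1.32-fold, 1.29-fold and 1.27-fold lower, and GCLC was nearest to level at 1.12-fold lower. The median of the members was -0.65, against -0.01 over all genes. The rule for membership used this contrast, and nothing further is read from these counts.

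**Figure D3:**
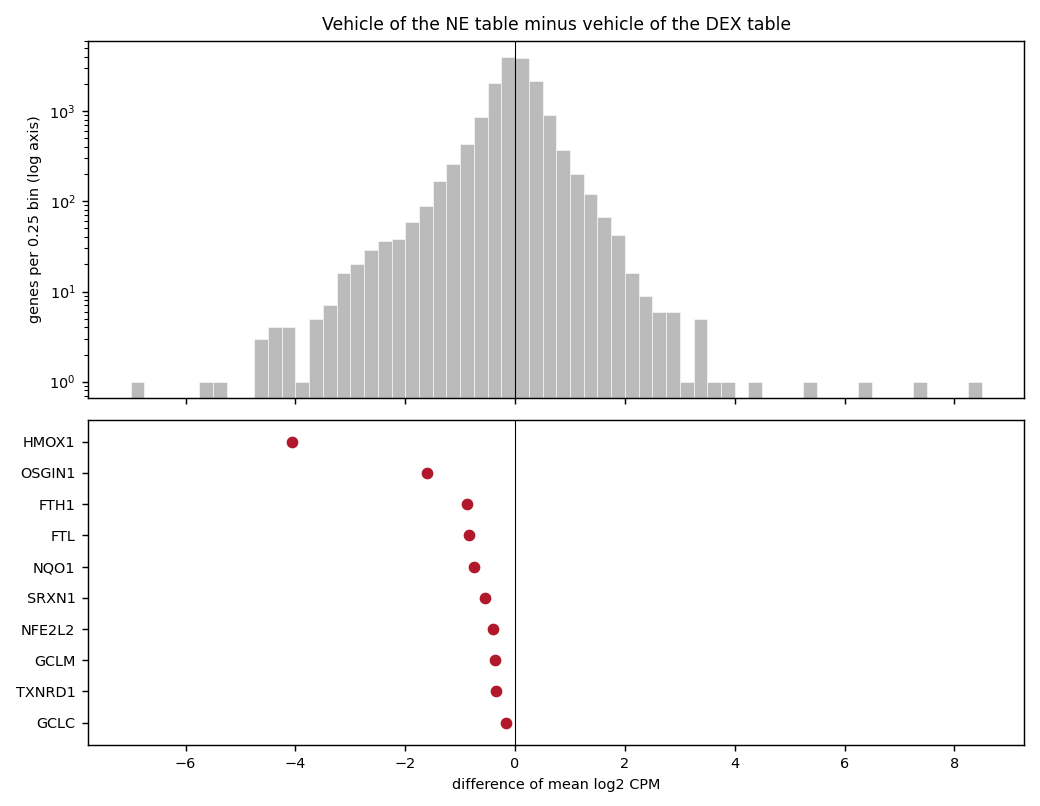
Difference of mean log2 CPM, NE-table vehicle minus DEX-table vehicle (x axis), as a histogram of all 15952 genes tested (above, number of genes on a log axis) and for each of the 10 genes (below, 1 point a gene). HMOX1 lies at -4.07 and OSGIN1 at -1.61, and the other 8 genes lie between -0.88 and -0.16.

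Vehicle set, table, sequencing and handling of the cultures cannot be told apart in this contrast. The mitochondrial share and the depth, given above, differed between the tables along with it. Among markers of other cell types, the summed level of 8 macrophage and leukocyte markers was 65.0 to 70.7 CPM in the NE-table vehicle and 29.3 to 31.6 CPM in the DEX-table vehicle. Of the 8, 2 reached 1 CPM: the lysosomal gene CD68, most of the sum, averaged 67.0 CPM in the NE-table vehicle and 27.4 CPM in the DEX-table vehicle, and CD14 averaged 0.476 CPM in the NE-table vehicle and 2.12 CPM in the DEX-table vehicle. MARCO and TYROBP had at most 1 count in any library. Red cell markers summed to 2.21 CPM at most in any library. Smooth muscle and pericyte markers summed to 124 to 133 CPM in the NE-table vehicle and 242 to 247 CPM in the DEX-table vehicle. Endothelial markers summed to 18.4 to 21.3 CPM in the NE-table vehicle and 10.1 to 11.7 CPM in the DEX-table vehicle. Schwann markers summed to 5.8 to 6.43 CPM and 4.53 to 5.4 CPM in the same order. The ranges of epithelial and of melanocyte markers overlapped between the vehicle sets. The part of depth, mitochondrial share and other cell types in the result was not tested.

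Levels per kilobase of exon, with all annotated exons of a gene merged, allow a rough comparison of genes. Transcripts can be shorter than this length, so the order of genes is approximate. On this scale FTL and FTH1 led in every set, and HMOX1 changed place between the tables. In the NE-table vehicle, HMOX1 was eighth of the 10 members at 10.1 CPM per kb (9.75 to 10.4), below SRXN1 at 18.3 (17.8 to 18.8) and above GCLC at 4.01. In the DEX-table vehicle it was at 172 CPM per kb (152 to 182), its range overlapping that of NQO1 at 146 (137 to 155). TXNRD1 was at 92.1 CPM per kb in the NE-table vehicle (90.6 to 94.8) and 117 in the DEX-table vehicle (115 to 119). NFE2L2, GCLM and SRXN1 formed a middle group, at 18.3 to 19.6 CPM per kb in the NE-table vehicle and 24 to 26.8 in the DEX-table vehicle. Within that group the ranges of GCLM and SRXN1 overlapped in the NE-table vehicle (18.1 to 18.9 and 17.8 to 18.8), and so did those of TXNRD1 and NQO1 (90.6 to 94.8 and 82.2 to 95.8) above it.

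Over the 12 libraries, the genes whose log2 CPM followed HMOX1 most closely were PNN, APCDD1L, SLIT3, MT-CO1 and MT-ND4, with Pearson r of 0.997 to 0.998. The libraries form 2 clusters, 1 for each table, so these values mainly record the step between the tables: SLIT3 averaged 8.44 CPM with NE and 8.56 CPM in its vehicle, and 39.5 CPM with DEX and 38.3 CPM in its vehicle. After each table was centred on its own mean, the most similar genes were LTV1, BTBD2, CSNK1E, EHD3 and FAAH, with r of 0.895 to 0.940. By the centred measure, OSGIN1 was the member most like HMOX1 (r = 0.90), followed by SRXN1 (0.77) and GCLC (0.75), and NQO1 was the least (-0.09). The libraries of a table share a range of depth and of mitochondrial share, and these coefficients are descriptions.

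Around the members, the regulators, partners and relatives of NRF2 moved in both directions with DEX: 3 of 16 rose and 3 fell, with a median of -0.02. The counts of this and the following lists with DEX stand beside 6.65% of all genes called higher and 3.46% called lower. BACH2, a relative of the repressor BACH1, averaged 8.50 ± 0.89 CPM with DEX and 4.77 ± 0.30 CPM in vehicle (log2 0.84, SE 0.11, adjusted p = 0.000103). SQSTM1, the autophagy receptor that binds KEAP1, fell to 683 ± 19 CPM with DEX, against 825 ± 30 CPM in vehicle (log2 -0.27, adjusted p = 0.000816), and NFE2L1, the related transcription factor, rose (log2 0.20, adjusted p = 0.00674). BACH1 (log2 -0.20, adjusted p = 0.0172) and MAFK (log2 -0.23, adjusted p = 0.0453) were called lower. KEAP1, MAFF and MAFG had log2 fold changes of -0.04, 0.01 and 0.11 with adjusted p of 0.645, 0.97 and 0.243. The BACH1 call ended without DEX-table vehicle replicate 2, DEX replicate 2 or DEX replicate 3 (log2 -0.19, -0.21 and -0.17), and the MAFK call without DEX-table vehicle replicates 1 or 2 or any 1 DEX replicate (log2 -0.27 to -0.15).

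The glutathione genes had 3 of 30 higher and 1 lower with DEX, with a median of -0.06. GSR, which regenerates reduced glutathione, averaged 114 ± 1.8 CPM with DEX and 77.9 ± 0.38 CPM in vehicle (log2 0.55, SE 0.04, adjusted p = 4.32e-07). SLC7A11, the cystine importer that feeds glutathione synthesis, averaged 145 ± 8.7 CPM with DEX and 99.9 ± 2.5 CPM in vehicle (log2 0.54, SE 0.05, adjusted p = 2.72e-06). MGST2, a microsomal glutathione transferase, fell (log2 -0.37, adjusted p = 0.0103), except without DEX-table vehicle replicate 2 (log2 -0.34, adjusted p = 0.0579).

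Among thioredoxin and peroxiredoxin genes 2 of 15 rose and 0 fell with DEX: TXNIP, which inhibits thioredoxin (log2 0.36, adjusted p = 2.18e-05), and PRDX6 (log2 0.21, adjusted p = 0.00402). TXN and PRDX1 did not pass (adjusted p = 0.991 and 0.913). The aldo-keto reductases AKR1C2 and AKR1C1 were the 2 of 17 detoxification genes called, both higher (log2 0.78 and 0.43, adjusted p = 0.000644 and 0.000791); their sequences are near-identical and reads may be split between them. NADPH supply had 0 of 11 called, and superoxide and peroxide enzymes 0 of 6. With heme and iron genes, 2 of 20 rose and 1 fell: STEAP3, an iron reductase of endosomes, averaged 54.7 ± 1.7 CPM with DEX and 41.7 ± 2.1 CPM in vehicle (log2 0.39, adjusted p = 0.000151), IREB2, an iron regulatory protein, rose (log2 0.23, adjusted p = 0.0167) and SLC40A1, the iron exporter ferroportin, fell (log2 -0.35, adjusted p = 0.0423). TFRC, the transferrin receptor, and BLVRB, a biliverdin reductase, did not pass (adjusted p = 0.0575 and 0.579), and TFRC was called without DEX replicate 3 (log2 0.27). The IREB2 call ended without DEX-table vehicle replicates 1 or 2 or DEX replicates 1 or 2 (log2 0.18 to 0.24), and the SLC40A1 call without DEX-table vehicle replicates 2 or 3 or DEX replicates 1 or 2 (log2 -0.40 to -0.25).

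Among 15 other stress genes, GADD45B rose (log2 0.27, adjusted p = 0.0169), and GDF15 (log2 -0.48, adjusted p = 0.0151) and DDIT3 (log2 -0.28, adjusted p = 0.0474) fell with DEX. Each of these calls ended in some fits with 1 library fewer: GADD45B without vehicle replicates 2 or 3 or DEX replicates 2 or 3 (log2 0.23 to 0.25), GDF15 without vehicle replicate 1 or DEX replicate 1 (log2 -0.39 and -0.37), and DDIT3 without vehicle replicates 1 or 2 or DEX replicates 1 or 3 (log2 -0.29 to -0.21). Over the 130 tested genes of the 8 lists, 13 rose and 7 fell with DEX, beside the same 6.65% and 3.46% of all genes.

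With NE, 7 of these 130 genes rose and 3 fell, beside 1.48% of all genes called higher and 1.34% called lower. SLC7A11 averaged 105 ± 4.1 CPM with NE and 73.3 ± 5.7 CPM in vehicle (log2 0.52, SE 0.06, adjusted p = 0.00452). ATF3, a stress-induced transcription factor, averaged 18.6 ± 0.36 CPM with NE and 10.1 ± 0.28 CPM in vehicle (log2 0.87, SE 0.06, adjusted p = 0.000229). Among regulators, 0 of 16 rose and 3 fell: NFE2L3, a relative of NFE2L2 (log2 -0.48, adjusted p = 0.0078), MAFF (log2 -0.36, adjusted p = 0.0142) and BACH1 (log2 -0.31, adjusted p = 0.0381). MGST1 (log2 0.56, adjusted p = 0.0109), CYP1B1 (log2 0.35, adjusted p = 0.0194), AKR1C2 (log2 0.60, adjusted p = 0.0314), TFRC (log2 0.31, adjusted p = 0.0446) and SESN2, a sestrin (log2 0.29, adjusted p = 0.0197), rose. KEAP1, MAFG, MAFK, SQSTM1, TXN, PRDX1, BLVRB and SLC40A1 had log2 fold changes of -0.11 to 0.03 and did not pass. Calls for 8 genes ended in fits with 1 library fewer. These were NFE2L3 without NE replicate 3 (log2 -0.48), MGST1 without vehicle or NE replicate 3 (both 0.54), MAFF without vehicle replicate 2 or NE replicates 2 or 3 (-0.37 to -0.32), and CYP1B1 without vehicle replicates 2 or 3 or NE replicates 2 or 3 (0.30 to 0.39). TFRC was lost without vehicle replicate 3 or any 1 NE replicate (0.29 to 0.34). BACH1, SESN2 and AKR1C2 were lost without any 1 library other than vehicle replicate 1 (-0.32 to -0.27, 0.27 to 0.30 and 0.55 to 0.62).

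**Figure D4:**
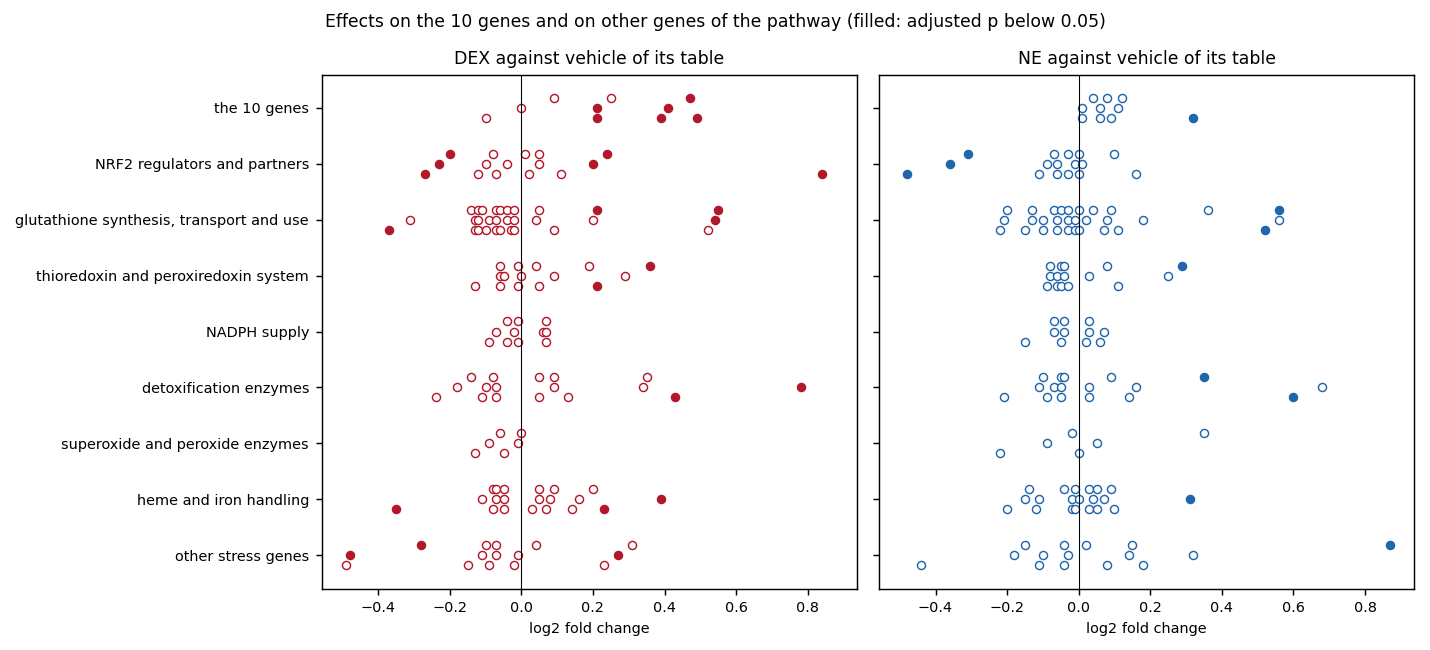
Log2 fold change of every tested gene of the 10 members and the 8 pathway lists, with DEX and with NE, each against its own vehicle. Points past an adjusted p of 0.05 are filled; with DEX, 6 of the 10 members and 13 of the 130 list genes are filled above 0, and 7 list genes below it.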

How the data were processed

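RNA was sequenced from 3 DEX, 3 NE and 2 sets of 3 vehicle libraries. The authors deposited expected counts per gene (estimated counts that need not be whole; the unit was read from the values, of which 49.3% to 55.6% above 0 were not whole) in 2 tables. For the aligner, counting tool, genome build, strand setting and kit: not given in the sources used here. Rounding these values moved a library's total by 0.000918% at most. Symbols matched 34436 of 37247 identifiers; positions and exon lengths came from GENCODE on GRCh38, and the authors' build is not stated. HMOX2, SOD2 and GSTT1 are not analysed here.

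Genes were filtered with filterByExpr (minimum count 10), scaled by TMM and fitted by edgeR's quasi-likelihood method (version 4.0.16, with limma 3.58.1 in R 4.3.3), two-sided, Benjamini-Hochberg adjusted over all genes, with an adjusted p below 0.05 called. Each treatment was set against the vehicle of its own table; the difference between effects used all 12 libraries in 1 fit. CPM use TMM-scaled library sizes over all 12 libraries, since the tables hold the same genes; levels set across tables are descriptions. Likeness used log2 CPM with a prior count of 2 among genes with an average log2 CPM of at least 1. The script was tested on simulated data. Depth sets counting error; the members had at least 271 counts in every library.

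The members and lists were chosen with earlier results of these data known. The 10 members are named in every comparison. From each list the text names the called genes among the 3 with the smallest p, and always KEAP1, BACH1, the small MAF genes, SLC7A11, TXN, PRDX1, SQSTM1, BLVRB, SLC40A1 and TFRC; 1 further gene of this rule is not reported here. Alternatives were RLE scaling, DESeq2 1.42.0, other filters, a replicate block, all 12 libraries in 1 fit, summed ferritin pseudogenes and each library left out. A correction for GC content and length was added after the data were seen.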

Additional observations from a re-analysis of the deposited data

Results flagged for a closer look

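The DEX effect and the NE effect, each against its own vehicle, differed in 13 named genes by edgeR's test of the difference itself (values are the DEX effect minus the NE effect, log2; no outlier test was run on single genes in groups of 3 libraries). Of all genes in that fit, 6.00% were called, 3.88% higher and 2.12% lower. The list genes among the 13 are named because they passed this test, so the 13 are not a share of a fixed set. Of the 10 members, 2 were called higher and 0 lower. Of the 130 tested list genes, 6 were called higher and 5 lower. The contrast uses both vehicle sets, whose difference was in view when the members were chosen. The antioxidant members among the 13 were TXNRD1 (0.36, SE 0.05, adjusted p = 0.000642) and GCLC (0.39, SE 0.08, adjusted p = 0.00584).

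Of the surrounding pathway genes, GSR had the smallest p (0.51, SE 0.05, adjusted p = 3e-05): it averaged 80.8 ± 1.7 CPM with NE and 78.7 ± 2.8 CPM in the vehicle of that table. STEAP3 differed by 0.43 (adjusted p = 0.00264), TXNIP by 0.28 (adjusted p = 0.00301) and SESN2 by -0.42 (adjusted p = 0.00187). CHAC1, which degrades glutathione, differed by -0.87 (SE 0.17, adjusted p = 0.00493), at 5.57 ± 0.37 CPM with DEX and 6.92 ± 0.82 CPM in vehicle, and 5.68 ± 0.55 CPM with NE and 3.86 ± 0.48 CPM in vehicle; neither effect alone passed (adjusted p = 0.106 and 0.0536). These 5 calls and those of TXNRD1 and GCLC did not change in 17 alternatives.

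The other differences were BACH2 (0.74, adjusted p = 0.0187), GPX8 (-0.22, adjusted p = 0.0216), NFE2L3 (0.35, adjusted p = 0.0232), ATF3 (-0.56, adjusted p = 0.0276), PRDX6 (0.25, adjusted p = 0.0403) and HSPA5 (-0.26, adjusted p = 0.0404), each lost in 4 to 10 of the 12 fits with 1 library fewer. The highest adjusted p in those fits was 0.0628 for BACH2 (0.68, without NE-table vehicle replicate 2), 0.0769 for GPX8 (-0.21, without NE replicate 2) and 0.0651 for NFE2L3 (0.32, without DEX-table vehicle replicate 1). It was 0.0782 for ATF3 (-0.54, without NE-table vehicle replicate 2; 0.0554 without replicate 1, which stood apart), 0.0996 for PRDX6 (0.22, without DEX-table vehicle replicate 3) and 0.113 for HSPA5 (-0.24, without DEX-table vehicle replicate 2).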

How the results depend on the processing

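Of the members, TXNRD1, GCLC, OSGIN1 and NFE2L2 with DEX and NFE2L2 with NE kept direction and call in 15 alternatives each. With DEX, 4 to 7 members were called higher, the 4 without DEX replicate 2, and 0 to 1 lower. Over all genes, 700 to 1381 were called higher in these alternatives and 283 to 715 lower, against 1006 and 524 in the main fit. Without DEX replicate 2, 700 were called higher and 294 lower. Genes called with DEX, 1530 in all, ranged over 983 to 1835 with 1 library left out: 983 without vehicle replicate 2 and 994 without DEX replicate 2. Genes called with NE, 441 in all, ranged over 150 to 658, with 217 and 210 without vehicle replicates 2 and 3, and 275, 150 and 160 without NE replicates 1, 2 and 3; the highest was without vehicle replicate 1, the library that stood apart, where genes called for the difference between effects were 1243, against 957 with it. Genes called with NE were 702 in the fit of all 12 libraries and 705 after the GC and length correction.

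Replicate numbers did not pair the libraries throughout: correlations of same-numbered libraries were -0.11 to 0.04 in the DEX table and 0.04 to 0.18 in the NE table. In the NE table, replicates 1 and 3 were each most like the library of the same number (0.18 and 0.11), and replicate 2 was not (0.04). The main NE test has no block, so it ignores any effect shared by same-numbered libraries. With the number as a block, 1066 genes were called with DEX and 1688 with NE (2067 with the GC correction), HMOX1 was called with DEX (0.25), and TXNRD1 joined NFE2L2 as higher with NE, 2 members in all (3 with the GC correction, HMOX1 included). Over all genes, those called higher with NE numbered 793 with the block and 977 with block and GC correction, against 232 in the main fit. The block also ended the DEX calls of BACH1, MAFK, SLC40A1, IREB2, GDF15 and GADD45B. DESeq2 ended those of MAFK, SLC40A1, MGST2, GADD45B and DDIT3 and the NE call of AKR1C2, and called TFRC with DEX. DDIT3 was also lost with DEX in the fit of all 12 libraries (adjusted p = 0.0817) and after the GC correction (0.143, and 0.0546 with the block), and the GPX8 difference without the filter (0.0775). TFRC was also called with DEX without the filter (0.000388) and with block and GC correction (0.024).

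Reversals were all of values near 0 that did not pass. With DEX they were FTL (0.07 with GC correction, alone or with the block; 0.00 without filter), PRDX1 (0.04 in both GC fits) and TXN (0.05 in both, 0.00 with block, 0.01 without filter). With NE, BLVRB was 0.01 in both GC fits. With 1 library left out, the DEX ranges were -0.08 to 0.04 for FTL, -0.09 to 0.10 for MAFF, -0.07 to 0.04 for PRDX1 and -0.10 to 0.08 for TXN; the NE ranges were -0.03 to 0.08 for NQO1, -0.03 to 0.09 for FTH1, -0.06 to 0.05 for BLVRB, -0.13 to 0.01 for PRDX1, -0.02 to 0.08 for SLC40A1, -0.06 to 0.02 for SQSTM1 and -0.16 to 0.10 for TXN. The causes were not tested.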

Other observations

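Heat-shock and stress genes outside the antioxidant members also stood apart between the vehicle sets, as values with no test. HSPA1A and HSPA1B, near-identical copies of the inducible HSP70 chaperone whose counts were therefore summed, were at 71.3 ± 7.7 CPM in the NE-table vehicle and 626 ± 27 CPM in the DEX-table vehicle (SD, n = 3 each). ATF3 was at 10.1 ± 0.28 CPM in the NE-table vehicle and 45.9 ± 3.4 CPM in the DEX-table vehicle. The HSP70 co-chaperones HSPH1 and DNAJB1 were at 180 ± 3.9 and 143 ± 5.4 CPM in the NE-table vehicle, against 365 ± 2.7 and 276 ± 8.7 CPM in the DEX-table vehicle. Of 15 such stress genes, 11 were lower in every NE-table vehicle library than in any DEX-table vehicle library, beside 28.0% of all genes. In the same way 2 were higher, TRIB3 and GADD45B, beside 28.2% of all genes. TRIB3 was at 27.1 ± 2.2 CPM in the NE-table vehicle and 20.4 ± 1.3 CPM in the DEX-table vehicle. GADD45B was at 25.4 ± 2.3 and 20.8 ± 1.1 CPM in the same order. The other 2, HSPA5 and GDF15, overlapped. This list was chosen with earlier results of these data known.

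The small MAF partners of NRF2 followed the same order, MAFG at 45.1 ± 2.1 CPM in the NE-table vehicle and 88.0 ± 4.0 CPM in the DEX-table vehicle. BACH1, the repressor of HMOX1, went the other way, at 74.9 ± 5.7 CPM in the NE-table vehicle and 64.4 ± 1.9 CPM in the DEX-table vehicle. Its relative BACH2 did not, at 2.71 ± 0.38 CPM in the NE-table vehicle and 4.77 ± 0.30 CPM in the DEX-table vehicle. Of the 16 regulators, partners and relatives of NRF2, 5 were lower in every NE-table vehicle library, 6 were higher in the same way and 5 overlapped. Their median log2 difference was 0.03, against -0.01 over all genes. KEAP1 overlapped, at 103 ± 8 CPM in the NE-table vehicle and 108 ± 1.8 CPM in the DEX-table vehicle. Of all 130 tested list genes, 57 were lower in every NE-table vehicle library, 36 were higher in the same way and 37 overlapped. In this order, glutathione genes gave 15, 11 and 4, and thioredoxin and peroxiredoxin genes 5, 4 and 6. NADPH supply gave 4, 2 and 5, and detoxification genes 11, 3 and 3. Superoxide and peroxide enzymes gave 2, 1 and 3, and heme and iron genes 4, 7 and 9. Of all genes, 28.0% were lower and 28.2% higher. The cause of these differences was not tested.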
